A study of Mus musculus with 22 samples.

Results

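Sdc1, the gene of the cell surface proteoglycan syndecan-1 (CD138), was followed together with 7 other genes that antibody-secreting B cells express: Prdm1, Irf4, Derl3, Mzb1, Jchain, Eaf2 and Fkbp11. The members were taken by symbol from the deposited tables of mouse splenic immature B cells, and the question was whether Sdc1 moves with the other 7 or apart from them. All 8 were found among the 21880, 26097 and 25676 genes of the 3 tables, with Jchain under its older symbol Igj and matched by gene ID. All 8 also passed the filter on low values (a mean of at least 10 in the table), which left 11701, 13364 and 12386 genes tested.

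The cells were B220+CD93+ immature B cells of the spleen, in 22 libraries of total RNA and 7 groups. In experiment 1, 3 libraries of untreated Tcrd-GDL mice were set beside 3 of Tcrd-GDL mice given diphtheria toxin (DTx), here called depleted because the series describes these mice as lacking γδ T cells for 8 days. In experiment 2, 5 untreated (numbered 4 to 8) and 2 depleted (4 and 5) Tcrd-GDL libraries were set beside 3 of Tcrd-H2BeGFP mice given the same toxin, here called toxin controls. The toxin was injected 2 times into the peritoneum at 15 ng per gram of body weight, with 48 h between the injections, and spleens were analysed on day 8 from the first of them. In the culture experiment, B220+CD93+ cells from Tcrd-H2BeGFP mice, which had not been treated, were kept alone (3 libraries) or with γδ T cells (3 libraries). The labels give neither the age of the mice nor the length of the culture, and do not say whether Tcrd-H2BeGFP carries a toxin receptor. Depleted and toxin control mice thus differ in strain, while depleted and untreated mice differ in toxin as well as in γδ T cells. Whether each library of a group is a separate mouse or culture is not stated, so each p measures the spread between these libraries, which may be technical.

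Plasmablasts are dividing B cells that have begun to secrete antibody. Their program is set by transcription regulators, chiefly Blimp-1 (Prdm1) and IRF4, which shut down B cell identity genes, and by XBP1, which enlarges the endoplasmic reticulum (ER). CD138 binds growth and survival factors through its heparan sulfate chains and is the usual surface marker of plasma cells, but B cell precursors also carry it. Among the other members, EAF2 binds the elongation factor ELL, DERL3 (Derlin-3) draws misfolded proteins out of the ER, MZB1 is an ER co-chaperone for immunoglobulin, FKBP11 is a prolyl isomerase of the ER, and JCHAIN joins the units of polymeric IgM and IgA.

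In the GRCm38 build, Sdc1 is at chr12:8771323-8793715 on the plus strand, Prdm1 at chr10:44437177-44528501 on the minus strand, and Irf4 at chr13:30749226-30766976 on the plus strand. Eaf2 (chr16:36792884-36875003, minus strand) overlaps Iqcb1 on the opposite strand over 44337 bases. Iqcb1 has mean normalized counts of 232, 681 and 397 in the 3 tables, and since the sources used here do not say whether reads were counted by strand, part of the Eaf2 count may come from it. Mzb1 is overlapped by SPATA24 on the same strand over 2100 bases. SPATA24 was not found in the 3 tables under its gene ID, and its part in the Mzb1 count was not tested. Derl3 is at chr10:75893413-75895941 (plus), Jchain at chr5:88519809-88527891 (minus) and Fkbp11 at chr15:98724366-98728198 (minus).

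The promoters of Sdc1, the surface marker, and of Derl3, an ER gene, are shown. The 250 bases before the RefSeq start site are given (GRCm38.p6, plus strand, chr12:8771146-8771395 for Sdc1 and chr10:75893148-75893397 for Derl3), with capitals for CCACG on either strand, the core of the ER stress element that XBP1 and ATF6 can bind.
Sdc1: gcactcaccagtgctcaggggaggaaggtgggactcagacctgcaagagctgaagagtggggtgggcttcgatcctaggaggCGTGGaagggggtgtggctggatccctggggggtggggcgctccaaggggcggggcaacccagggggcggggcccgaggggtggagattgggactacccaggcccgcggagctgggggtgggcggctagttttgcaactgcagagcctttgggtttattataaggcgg
Derl3: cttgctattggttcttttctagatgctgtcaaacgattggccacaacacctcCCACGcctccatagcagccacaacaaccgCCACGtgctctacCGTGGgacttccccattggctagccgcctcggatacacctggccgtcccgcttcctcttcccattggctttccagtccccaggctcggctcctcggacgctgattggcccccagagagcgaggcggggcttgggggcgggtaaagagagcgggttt
Over the 300 bases from 250 before to 50 after the start, Sdc1 held CCACG at 1 place, with its first base at position -168, and Derl3 at 3 places, at -198, -169 and -156. Of 32851 RefSeq promoters of that length, 32.8% held CCACG. The full element, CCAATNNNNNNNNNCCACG, was in 0.119% of them (39 promoters) and, among the members, in the promoter of Derl3 at -156 on the minus strand, where it contains the CCACG at that position. Sdc1 held the GC box GGGCGG at 3 places (-121, -104 and -49), Derl3 at 1 place (-23), and 35.7% of all promoters held it. TTCNNNNGAA, a spaced palindrome that STAT6 can bind, was in 6.95% of all promoters and in none of the 10 RefSeq promoters of the 7 members searched. Mzb1 was left out of the promoter search, so what is said here of the members does not cover it. These matches describe letters in a window and show no binding.

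The normalized count of Sdc1 was intermediate among the members. Per kilobase of exon, the mean normalized count in untreated libraries of experiment 1 was 866 for Mzb1, 410 for Irf4, 341 for Jchain and 106 for Sdc1, with 22.5 for Derl3, 15.7 for Prdm1, 14.2 for Eaf2 and 12.3 for Fkbp11. Mzb1, Irf4, Jchain and Sdc1 took the first 4 places in this order in the untreated libraries of experiment 2 and in cells cultured alone too, while the order of the lower 4 genes differed. Jchain was the most variable: its normalized count was 610, 1227, 2065, 2612 and 2813 in the 5 untreated libraries of experiment 2, so that its place next to Irf4 is not set beyond that spread. Derl3 was the least certain, with 3 to 20 reads per library in culture. Depleted replicate 1 of experiment 1 had the fewest reads of all libraries (9794413). In that experiment limma called 0 genes with it and 1092, or 9.37%, without it. Whether its depth had a part in this was not tested.

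**Figure D1:**
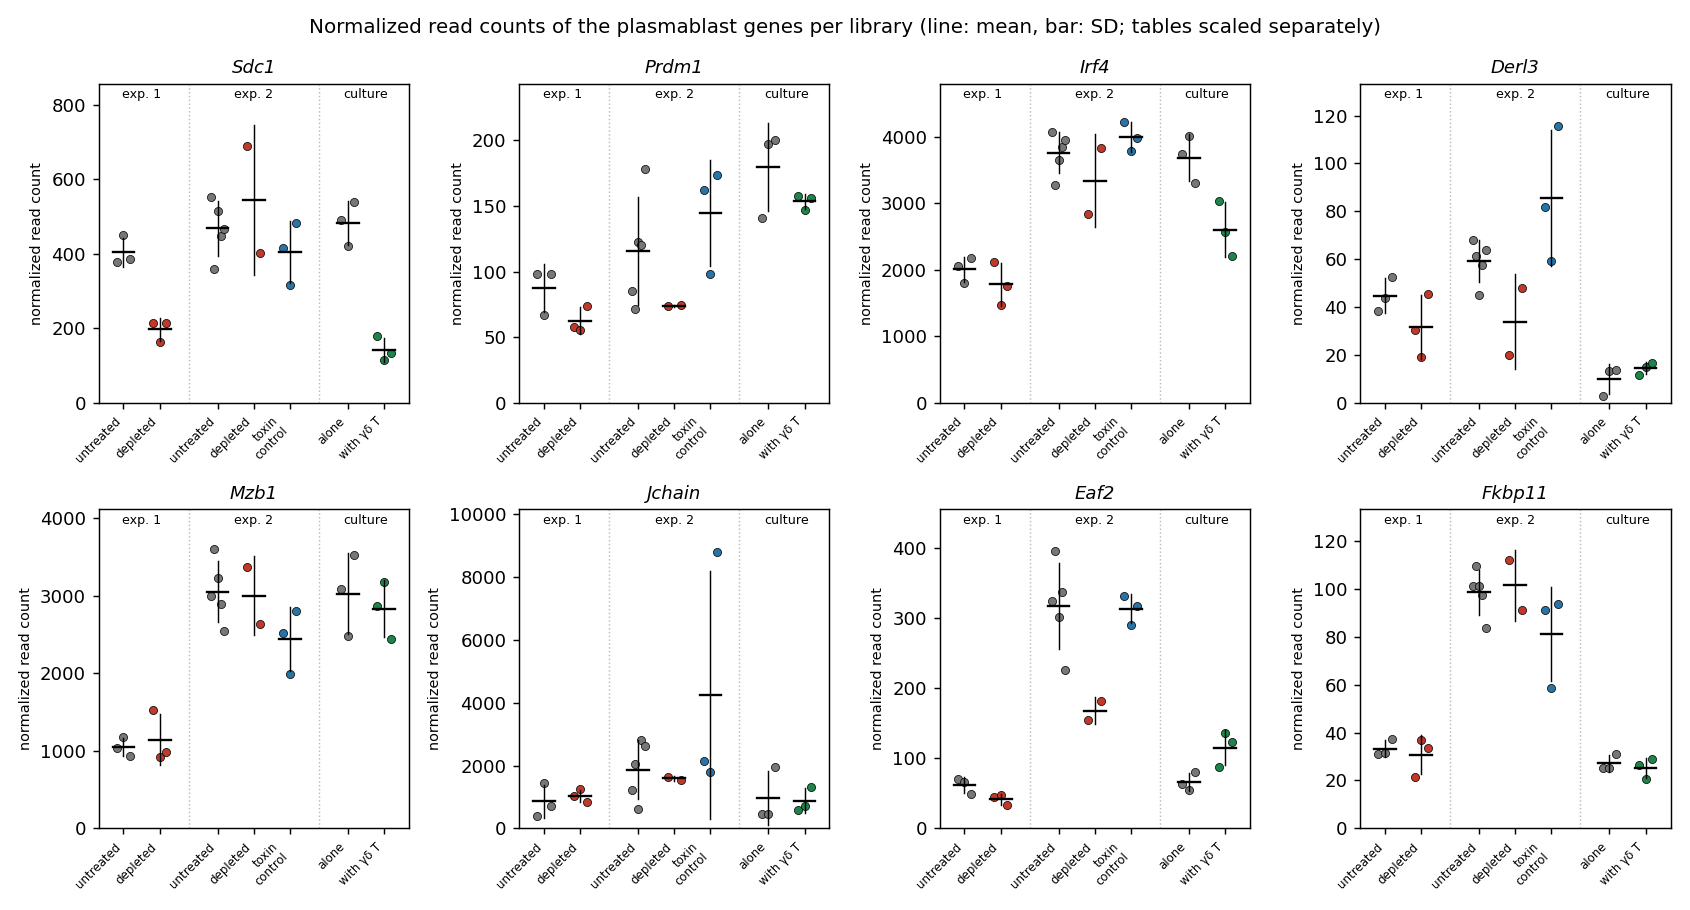
Normalized read count (y axis, from 0) of each gene in each of the 22 libraries, by group and experiment; points are libraries, lines means and bars SD, and the 3 tables were scaled separately. Sdc1 lay between 115 and 179 in the 3 cultures with γδ T cells and between 422 and 539 in the 3 without, while most other genes overlapped between those groups.

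Immature B cells cultured with γδ T cells had far less Sdc1 RNA than those cultured alone, and none of the other 7 genes passed the test. Sdc1 stood at 490, 422 and 539 normalized counts in cells cultured alone and at 179, 115 and 132 with γδ T cells. Every library with γδ T cells lay below every library without. In these bulk libraries, fewer cells with Sdc1 RNA and less Sdc1 RNA per cell cannot be told apart. The means were 484 ± 58.9 and 142 ± 32.8 (SD, n = 3 each), a 3.40-fold difference. Sdc1 fell by 1.78 ± 0.17 (SE) on the log2(value + 1) scale (limma, adjusted p = 0.000107). Log2 values and changes here are on that scale unless stated otherwise, apart from those of DESeq2. Sdc1 was the 1 member of 8 that passed the test of an adjusted p under 0.05, against 2.16% of all genes tested, of which 1.06% were lower. Only 0.0404% of the tested genes had a more negative change than Sdc1.

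The transcription regulators went different ways in culture without passing the test. Irf4 had 3740.0, 4007 and 3309 normalized counts in cells cultured alone and 3032, 2565 and 2202 with γδ T cells. The groups did not overlap, and the change was -0.51 ± 0.14 (limma, adjusted p = 0.0888). Prdm1 was 141, 198 and 201 against 157, 147 and 156, so the cultures with γδ T cells sat inside the range of those without (log2 -0.21, adjusted p = 0.689 by limma). Eaf2 went the other way, at 63.6, 54.4 and 81.0 alone and 87.5, 136 and 123 with γδ T cells. Its groups did not overlap either (log2 0.79 ± 0.22, limma adjusted p = 0.0979). Sdc1, Irf4 and Eaf2 were thus 3 of 8 members whose groups did not overlap, against 18.4% of all genes tested. DESeq2 on the recovered reads called Irf4 lower and Eaf2 higher (adjusted p = 0.0357 and 0.0417), where edgeR did not (0.120 and 0.0952). DESeq2 called 3.42% of all genes and edgeR 1.91%.

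The secretory genes overlapped between the cultures. Mzb1 had 3086, 2477 and 3524 normalized counts alone and 2868, 3186 and 2450.1 with γδ T cells (log2 -0.09, limma adjusted p = 0.873). Fkbp11 had 25.2, 25.1 and 31.1 against 26.2, 20.7 and 28.9 (log2 -0.10, limma adjusted p = 0.925). The differences between the means of these 2 genes were smaller than the SD of either group. Derl3 stood at 2.80, 13.4 and 13.7 alone and at 11.7, 14.8 and 16.7 with γδ T cells (log2 0.71 ± 0.56, limma adjusted p = 0.682), with the first library resting on 3 reads. Jchain was 453, 472 and 1962 against 597, 725 and 1329.9 (log2 0.15, limma adjusted p = 0.933), so that 1 library of each group was high. The median log2 change of the 7 genes other than Sdc1 was -0.09, beside -0.00 over all genes tested.

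Of 21 tested genes of ER folding and secretion, 6 rose in culture with γδ T cells and 15 did not pass the test, and 5 of the 21 had a negative change. The list's median log2 change was 0.28, beside -0.00 over all genes tested. Sdf2l1, which works with ER chaperones, had 259 ± 33.8 normalized counts with γδ T cells and 87.2 ± 10.8 alone (n = 3 each, log2 1.56 ± 0.16, limma adjusted p = 0.000207). Xbp1, the regulator of ER expansion, had 1737 ± 126 against 825 ± 54.5 (log2 1.07 ± 0.12, limma adjusted p = 0.000246). Hspa5, the chaperone BiP, had 4355 ± 703 against 2497 ± 193 (log2 0.79 ± 0.14, limma adjusted p = 0.00881), and Pdia6, Manf and Hyou1 were the other 3. Of 8 tested further plasma cell genes, such as Slamf7 and Pou2af1, none passed the test, with a median of 0.11.

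Among 14 B cell identity genes, which plasma cells turn down, 3 were higher in culture with γδ T cells and none was lower: Fcer2a, the low-affinity IgE receptor CD23, by 1.56 on the log2 scale, Ciita, the activator of MHC class II genes, by 0.98, and Bcl6, the repressor of the germinal centre, by 0.83. Of 7 tested early B cell genes 2 were lower, Sox4 (log2 -0.75 ± 0.14, limma adjusted p = 0.0158) and Myb (-0.52 ± 0.12, limma adjusted p = 0.0494), both transcription factors of B cell precursors. Cd93, the marker on which the cells were sorted, had 1222 ± 100.4 normalized counts with γδ T cells and 1233 ± 176 alone (log2 -0.01, limma adjusted p = 0.990). Cd69, an early activation antigen, was the 1 of 11 activation genes that rose (log2 0.77), and none of 10 cell cycle genes passed.

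**Figure D2:**
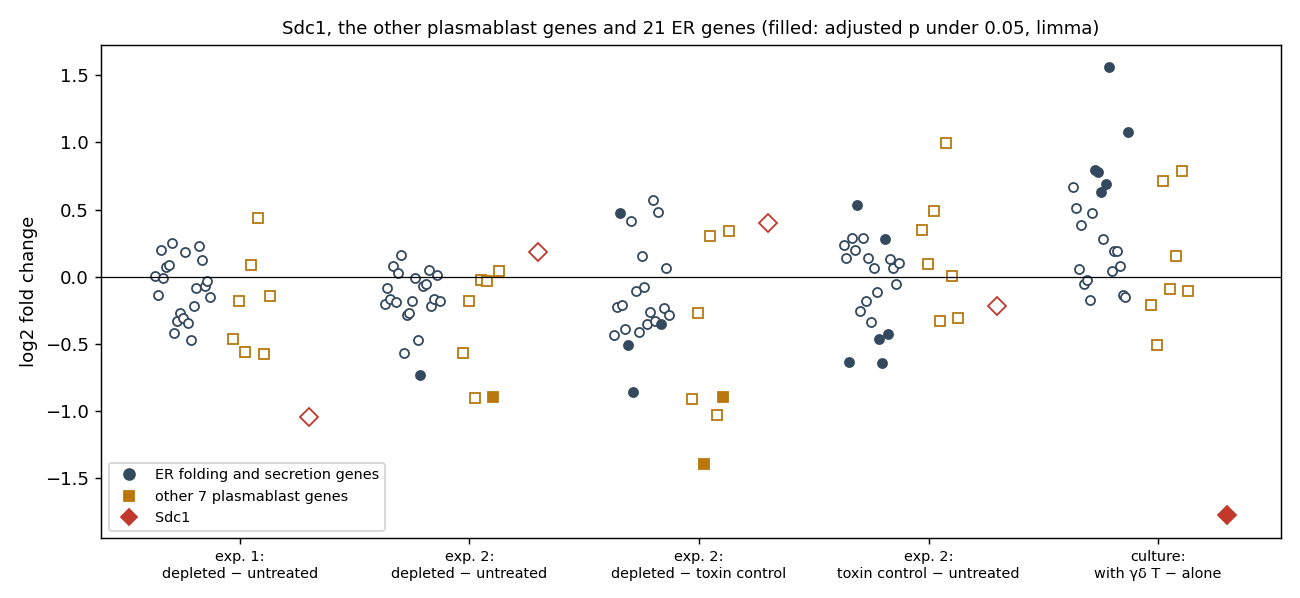
Log2 fold change (y axis) in each of the 5 comparisons of 21 ER folding and secretion genes (circles), of 7 plasmablast genes (squares) and of Sdc1 (diamonds); filled symbols have an adjusted p under 0.05 (limma). In culture Sdc1 lies at -1.78 while 6 ER genes, up to Sdf2l1 at 1.56, are higher.

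Markers of other cells were measured beside the culture result. The summed normalized count of 11 T cell genes was 2389 to 2579 in cells cultured alone and 2011 to 2483 with γδ T cells, and Cd2, which B cells also express, made up 58.2% of it. Trdc, the constant part of the γδ T cell receptor, was not analysed here. Among 11 tested T cell genes, Lck was higher with γδ T cells (log2 0.71, limma adjusted p = 0.0297), and the list's median was -0.10. Trac and Trbc2, which encode chains of the αβ T cell receptor, had means of 16.5 and 27.7 with γδ T cells and 11.7 and 19.4 alone. They are not markers of γδ T cells. Cd3e, a gene of T cells in general, had 50.9 and 46.5. How many γδ T cells remained in the sorted B cells was not tested. The sums of 6 splenic B cell genes overlapped (50701 to 57348 against 52827 to 58910). Erythroid genes summed to 7.90 to 419 with γδ T cells and 3.74 to 9.21 alone, and their part in the result was not tested.

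In the spleens of experiment 1, Sdc1 RNA was lower after γδ T cell depletion in every library, without passing the test. It stood at 378, 449 and 386 normalized counts in untreated and at 214, 162 and 215 in depleted mice. The groups did not overlap, and their means of 405 ± 38.9 and 197 ± 30.2 (SD, n = 3 each) differed 2.05-fold. The log2 change of -1.04 ± 0.14 had an adjusted p of 0.181 in limma and 0.133 in edgeR, and 1.11e-05 in DESeq2. No member passed in limma (0 of 8), where 0.0% of all genes did. Unadjusted p-values lay under 0.05 for 2 members (Sdc1 and Eaf2) and for 1033 of the 11701 genes. edgeR called no gene, and DESeq2 called 27, or 0.231%.

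Among the regulators of experiment 1, Eaf2 had 71.0, 66.6 and 49.2 normalized counts in untreated and 44.4, 47.4 and 32.9 in depleted mice (log2 -0.57 ± 0.24, limma adjusted p = 0.549). Sdc1 and Eaf2 were the 2 of 8 members whose groups did not overlap, against 15.2% of genes. Prdm1 was 97.8, 66.6 and 98.3 against 58.1, 55.8 and 74.1, with 1 untreated library among the depleted ones (log2 -0.47 ± 0.22, limma adjusted p = 0.576). Irf4 overlapped, at 2049.7, 1802 and 2172 against 2114, 1472 and 1761 (log2 -0.18).

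The secretory genes overlapped in experiment 1. Derl3 had 38.2, 43.6 and 52.6 normalized counts in untreated and 30.6, 18.9 and 45.5 in depleted mice (log2 -0.56 ± 0.33, limma adjusted p = 0.630). Mzb1 had 1044, 1174 and 938 against 1525, 917 and 992, with the first depleted library above all others (log2 0.09). Jchain ranged from 410.3 to 1446 in untreated and from 841 to 1239 in depleted mice (log2 0.44 ± 0.36), and Fkbp11 from 31.0 to 37.3 and from 21.4 to 36.8 (log2 -0.15). The median change of the 7 genes other than Sdc1 was -0.18, beside -0.01 over all genes, and 5 of the 7 were negative, beside 52.0% of all genes.

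Since limma called no gene at all in experiment 1, no gene of the 6 lists could pass. The medians were -0.07 over 21 ER genes, 0.01 over 8 further plasma cell genes, 0.03 over 14 identity genes, -0.32 over 6 early B cell genes and -0.71 over 10 cell cycle genes. Xbp1 was 583 ± 100.2 in depleted and 651 ± 139 in untreated mice (log2 -0.15, limma adjusted p = 0.806). The T cell sum was 1933 to 2455 in depleted and 2479 to 2656 in untreated mice, with 87.2% of it from Cd2, and its part in the Sdc1 difference was not tested. The plasmacytoid dendritic cell sums overlapped (391.7 to 538 against 379 to 606). Without depleted replicate 1, limma called Sdc1 (log2 -1.11, adjusted p = 5.8e-05) and Irf4 (log2 -0.31, adjusted p = 0.0446). That fit called 9.37% of all genes. Without any other single library limma called no member.

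In experiment 2, Sdc1 RNA of depleted mice was not set apart from that of either control. Sdc1 had 554, 359, 514, 449 and 467 normalized counts in the untreated libraries, 689 and 404 in the depleted ones and 415, 317 and 483 in the toxin controls. The 2 depleted libraries lay apart, one above every other library of the experiment and one within the untreated range. The log2 change was 0.18 ± 0.20 against untreated mice (limma, adjusted p = 0.840) and 0.40 ± 0.22 against toxin controls (adjusted p = 0.261), and toxin controls differed from untreated mice by -0.21 ± 0.18 (adjusted p = 0.436). Without depleted replicate 4 the first change was -0.20 and without depleted replicate 5 it was 0.57. These 3 comparisons share libraries, so their values do not stand for separate experiments. The tables of experiments 1 and 2 were scaled separately, and the difference between their Sdc1 changes was not tested.

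Eaf2 fell after depletion in experiment 2 against both controls and Derl3 against toxin controls, with calls that rested on single libraries. Eaf2 had 325, 396, 302, 338 and 226 normalized counts in untreated mice, 155 and 182 in depleted mice, and 332, 291 and 317 in toxin controls. Both depleted libraries lay below all 8 others. It fell by 0.89 ± 0.18 on the log2 scale against untreated mice (limma, adjusted p = 0.0466) and by 0.90 ± 0.20 against toxin controls (adjusted p = 0.0149). It was the 1 member of 8 called against untreated mice, where 0.299% of genes were called and 0.172% were called lower. It was also the 1 member without overlap there, against 12.3% of genes. The call against untreated mice lay close to the threshold. It was lost when 8 of the 10 libraries of the experiment were left out in turn (limma adjusted p = 0.0707 to 0.724, the last without depleted replicate 4) and kept without depleted replicate 5 or untreated replicate 8. It was also lost with edgeR (adjusted p = 0.0511, where edgeR called 0.382% of genes). In limma it was lost with both other filters on low values, with quantile normalization and with only the 2 groups compared (0.0502 to 0.132). DESeq2 kept it (0.00192), and the share of all genes that DESeq2 called there is not given here. The call against toxin controls was lost without depleted replicate 4 (adjusted p = 0.263).

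Derl3 had 68.0, 61.4, 44.9, 57.4 and 63.7 normalized counts in untreated mice, 19.7 and 47.8 in depleted mice, and 81.6, 59.4 and 116 in toxin controls. The depleted libraries lay below every toxin control, and 1 of them lay among the untreated libraries. Derl3 fell by 1.39 ± 0.37 against toxin controls (limma, adjusted p = 0.0320), and its change against untreated mice was -0.90 ± 0.34 (adjusted p = 0.359). Without depleted replicate 4, which rests on 18 reads, the change against toxin controls was -0.77 (adjusted p = 0.460), and it missed the threshold without any one toxin control as well (adjusted p = 0.0523 to 0.113).

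Against toxin controls, Derl3 and Eaf2 were the 2 of 8 members called, where 9.07% of genes were called and 4.49% were called lower. The groups did not overlap for 4 members, Prdm1, Derl3, Jchain and Eaf2, all lower in depleted mice, against 42.1% of genes without overlap. Prdm1 was 73.5 and 74.6 in depleted mice, 162, 98.3 and 173 in toxin controls and 85.4, 71.8, 122, 120.2 and 178 in untreated mice. Both depleted values were thus at the low end of the untreated range (log2 -0.91 ± 0.33 against toxin controls, limma adjusted p = 0.0927, and -0.56 ± 0.30 against untreated mice, adjusted p = 0.574). Irf4 was 2843 and 3835 in depleted mice, 4222, 3781 and 3975 in toxin controls and 3275 to 4068 in untreated mice (log2 -0.27 ± 0.12 and -0.18).

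Jchain, Mzb1 and Fkbp11 did not pass in experiment 2. Jchain was 1641 and 1538 in depleted mice, between the untreated extremes, and 2144, 1803 and 8788 in toxin controls (log2 -1.03 ± 0.58 against toxin controls, limma adjusted p = 0.269). The library at 8788, toxin control replicate 3, also had the highest of all Derl3 values and the highest macrophage sum, 2211, where the others had 897 to 1882. The part of those cells in the Jchain value was not tested. Mzb1 ranged from 2544 to 3603 in untreated mice, from 2643 to 3368 in depleted mice and from 1996 to 2803 in toxin controls, and Fkbp11 from 83.5 to 109, from 91.0 to 112 and from 58.4 to 93.7. Between toxin controls and untreated mice limma called no member (0 of 8, with 2 at an unadjusted p under 0.05). Of all genes it called 15.7%. No member was called by edgeR or DESeq2 either, and their shares of all genes are not given here. No member was without overlap there, against 23.4% of genes. The nearest to a call was Mzb1 (log2 -0.33 ± 0.12, limma adjusted p = 0.0807).

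**Figure D3:**
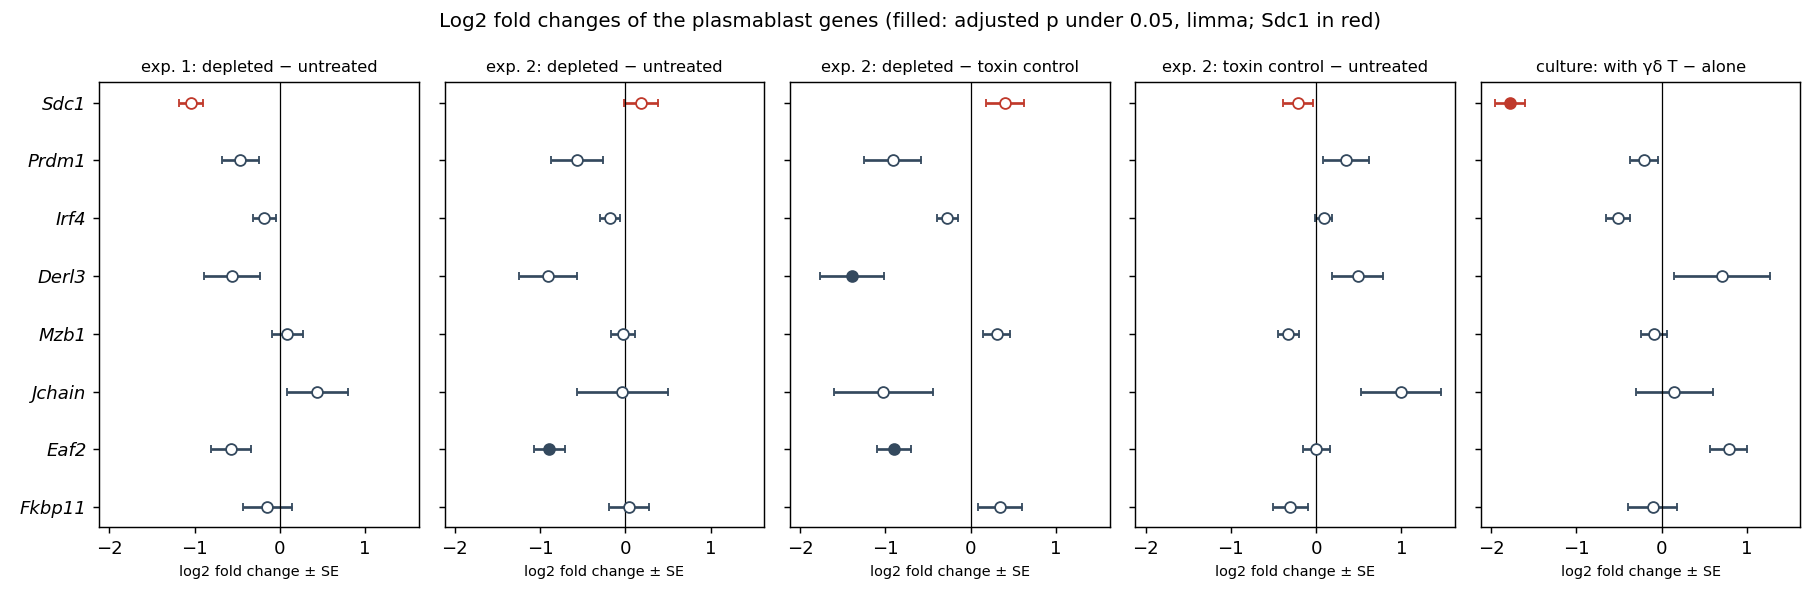
Log2 fold change ± SE (x axis) of each plasmablast gene in the 5 comparisons; filled points have an adjusted p under 0.05 (limma) and Sdc1 is red. Sdc1 is at -1.04 in experiment 1 and -1.78 in culture, and at 0.18 and 0.40 in the depleted mice of experiment 2, where Eaf2 and Derl3 are the filled points.

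The ER list was mixed in experiment 2. Of all genes, limma called 0.299% in depleted against untreated mice and 9.07% in depleted mice against toxin controls. Against untreated mice 1 of 21 ER genes was called in depleted mice, Sdf2l1, which fell by 0.73 on the log2 scale. Against toxin controls 1 was higher and 3 were lower, among them the chaperone Hsp90b1 (log2 -0.86), the ubiquitin ligase Syvn1 (-0.35) and the elongation factor Ell2 (-0.51). Xbp1 passed in none of the 3 comparisons (log2 -0.18, -0.28 and 0.10). Of 10 further plasma cell genes none was called against untreated mice, and 1 was lower against toxin controls, Prg2, best known for the major basic protein of eosinophil granules (log2 -2.55, limma adjusted p = 0.0275). Between toxin controls and untreated mice limma called 15.7% of all genes, and genes of both lists were among them. Of the 10 further plasma cell genes 3 were higher in toxin controls and none was lower: Prg2 (log2 2.57, limma adjusted p = 0.00746), Zbtb20 (0.58, adjusted p = 0.0164) and Slamf7 (0.28, adjusted p = 0.049995). Of the 21 ER genes 2 were higher, one of them Ell2 (log2 0.54, limma adjusted p = 0.0110), and 4 were lower, among them Dnajb9 (-0.63, adjusted p = 0.00467) and Sec61b (-0.64, adjusted p = 0.0106).

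Of 8 tested early B cell genes, 2 were lower in depleted mice of experiment 2 against untreated mice and 4 against toxin controls. Of 10 cell cycle genes, 1 (Mki67) was lower against untreated mice and 6 against toxin controls. In toxin controls, 3 of the 8 and 2 of the 10 were higher than in untreated mice. The shares of all genes called in these 3 comparisons were 0.299%, 9.07% and 15.7%, in the order given. Of 14 B cell identity genes, none was called in depleted against untreated mice. Against toxin controls 3 were lower and 0 higher: Bach2 (log2 -0.60), Spib (-0.53) and Ebf1 (-0.42). In toxin controls 3 of the 14 were higher than in untreated mice and 0 lower. Of 11 activation genes, 1 (Icosl) was higher in depleted than in untreated mice. Against toxin controls 2 were higher (Icosl and Cd69) and 1 lower (Il2ra). Rag1, which cuts antigen receptor genes, had a mean of 44.3 normalized counts in depleted mice, 189 in untreated mice and 639 in toxin controls (log2 -1.99 and -3.84). Cd93 was 1141 ± 65.7 in depleted mice, 1189 ± 192 in untreated mice and 2082 ± 286 in toxin controls, so the sort marker itself differed between toxin controls and each other group (log2 -0.86, limma adjusted p = 0.00597, and 0.81, adjusted p = 0.00232). Of 11 T cell genes 3 were lower in depleted mice than in toxin controls (median -1.47) and 5 higher in toxin controls than in untreated mice (median 1.24). The sum of 10 plasmacytoid dendritic cell genes was 1171 and 1789 in depleted mice, 963 to 1114 in toxin controls and 911 to 1506 in untreated mice. The highest of these sums belonged to depleted replicate 4, the library with the highest Sdc1, the lowest Derl3 and the highest sum of erythroid genes (4359, against 276 to 2400 in the other libraries). The part of these cells in the members' values was not tested.

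Sdc1 was also set against the other members within each library. The measure was log2 of the Sdc1 value less the mean log2 of the other 7 genes, given with no test since the genes were chosen. In culture it was 1.497, 0.99 and 0.89 in cells alone and -0.29, -1.02 and -0.95 with γδ T cells. In experiment 1 it was 1.02, 1.08 and 0.92 in untreated and 0.25, -0.03 and 0.26 in depleted mice. The groups did not overlap in either. The mean of the other 7 was 7.44 to 8.19 in cells alone and 7.78 to 8.01 with γδ T cells, so those groups overlapped. In experiment 1 it was 7.54, 7.74 and 7.68 in untreated and 7.50, 7.38 and 7.49 in depleted mice, so that every depleted library lay below every untreated one, in the direction of Sdc1.

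In experiment 2 the same measure overlapped between untreated and depleted mice. It was 0.35, -0.37, 0.42, -0.14 and -0.04 in untreated mice, 1.06 and 0.12 in depleted mice, and -0.30, -0.30 and -0.47 in toxin controls. The depleted libraries lay above the toxin controls, with 1 of them inside the untreated range. The mean of the other 7 was 8.37 and 8.54 in depleted mice, below all 8 other libraries, which ran from 8.59 to 9.39. The measure in depleted mice thus holds lower values of the other 7 as well as the Sdc1 value.

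**Figure D4:**
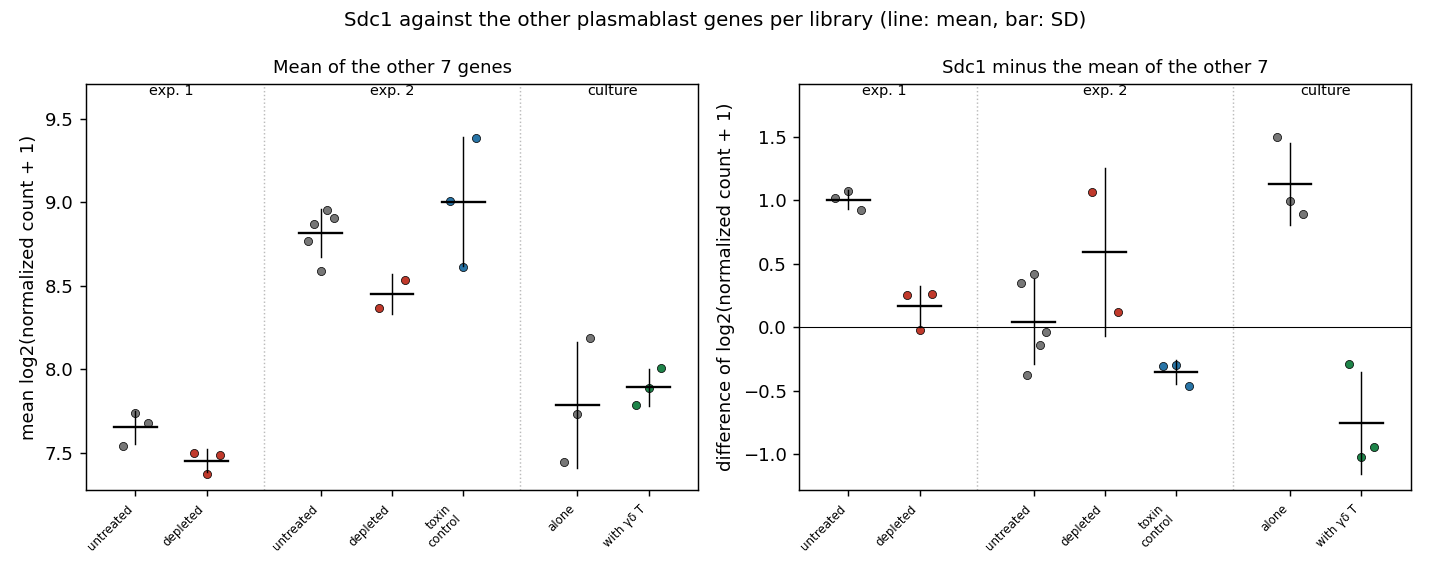
Per library, the mean log2(normalized count + 1) of the 7 genes other than Sdc1 (left) and Sdc1 minus that mean (right); points are libraries, lines means and bars SD. The mean of the other 7 overlaps between the culture groups and is lower in every depleted than in every untreated library of experiment 1 (7.45 against 7.65 on average), and Sdc1 minus that mean goes from 1.13 to -0.75 and from 1.01 to 0.16.

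Gene by gene, the ratio of Sdc1 to the other member was lower, with no overlap between groups, for 6 of 7 genes in culture and for 5 of 7 in experiment 1. The change of Sdc1 itself is in every such ratio: the same held for 96.8% and 88.7% of all tested genes other than Sdc1, so the counts show nothing particular to the members. In culture the exception was Jchain. The log2 ratio changes of the other 6, taken without the added 1, ran from -1.27 (Irf4) to -2.61 (Derl3). For Derl3, replicate 1 of the cells cultured alone rested on 3 reads. In experiment 1 the exceptions were Derl3 and Eaf2. Between depleted and untreated mice of experiment 2, the ratio to 1 of 7 genes, Eaf2, was higher without overlap, as it was to 2.3% of all genes. Against toxin controls the ratios to 4 of 7 (Prdm1, Derl3, Jchain and Eaf2) were higher without overlap, as were those to 15.2% of all genes. Between toxin controls and untreated mice the ratio to 1 of 7, Derl3, was lower without overlap, as it was to 6.81% of all genes. The ratios in a library share its Sdc1 value and are not independent.

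Between libraries of the same group, no member's correlation with Sdc1 lay outside the range that holds most genes. After each group's mean was taken off, Pearson's r with Sdc1 over the 22 libraries was 0.42 for Mzb1, 0.28 for Fkbp11, 0.28 for Prdm1, 0.14 for Jchain, 0.11 for Irf4, -0.05 for Derl3 and -0.32 for Eaf2. Over 11473 genes the median r was 0.00 and the 5th and 95th percentiles were -0.43 and 0.43. Each member thus lay inside that range, with Mzb1 close to its upper end. The 5 genes most like Sdc1 by this measure were Chtf18 (0.80), Izumo4 (0.77), Tusc3 (0.76), Casp6 (0.74) and Timm29 (0.73). Among pairs of members, the highest r was that of Mzb1 with Eaf2 (0.46) and the lowest that of Prdm1 with Eaf2 (-0.45). These values are descriptions over libraries that share tables and scaling.

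**Figure D5:**
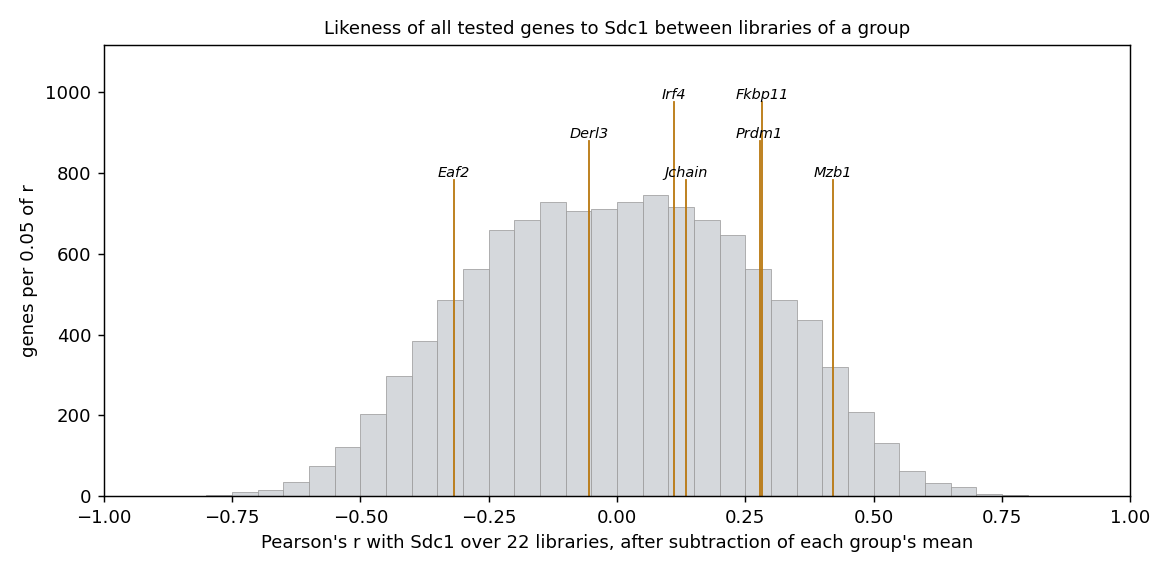
Number of tested genes (y axis) by Pearson's r with Sdc1 (x axis) over 22 libraries after each group's mean was subtracted; lines mark the 7 other plasmablast genes. They run from -0.32 (Eaf2) to 0.42 (Mzb1), between the 5th and 95th percentiles of all genes. Mzb1 is close to the upper one, with a lower r for 94.3% of genes.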

How the data were processed

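RNA was measured in 22 libraries, isolated with RNeasy Plus Micro and prepared with a SMART-Seq stranded kit, per the labels' protocols. Reads were demultiplexed with bcl2fastq and aligned with STAR 2.5.2b to mm10, per the submitters' processing notes. For the counter, its strand setting and the scaling, the sources used here name nothing. The deposited values are normalized read counts (a signal per gene, not raw counts). All of them (100%) were whole multiples, within 0.01 read, of what 1 read is worth in their library, which gave back the reads: per library, 9794413 to 20343954 (experiment 1), 22022330 to 36840455 (experiment 2) and 17505909 to 28729574 (culture). Counting error over the members ran up to 57.7% (Derl3 in culture) and covers counting only.

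Each table was tested alone with limma 3.58.1 (R 4.3.3; trend) on log2(value + 1), leaving out genes whose mean was under 10, with Benjamini-Hochberg adjustment over all genes tested. The 3 groups of experiment 2 were fitted together. edgeR 4.0.16 (quasi-likelihood) and DESeq2 1.42.0 were run on the recovered reads. Other alternatives were a pseudocount of 5, filters of a mean above 0 or of at least 50, quantile normalization, leaving out each library, a replicate block and, in experiment 2, fits on 2 groups. The fits were tested on simulated data. The text names the 8 members, Xbp1 and Cd93, up to 3 called genes per list and comparison by lowest p, and the 5 genes most like Sdc1; Pdia6, Manf, Hyou1, Slamf7, Pou2af1, Trac, Trbc2, Cd3e, Cd2, Lck and Iqcb1 were named after their values were seen. The members and lists were chosen with earlier results of these data known. Promoter sequences are RefSeq's. No sample column was left unmapped.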

Additional observations from a re-analysis of the deposited data

How the results depend on the processing

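No result changed direction past its threshold, and 677 of 744 values under alternatives counted as unchanged. For a gene's change this meant the same side of the threshold, and a change of sign short of it also counted. Mzb1 in experiment 1, for example, went from 0.09 to -0.14 without depleted replicate 1. For members called it meant an equal or similar count, and for Sdc1 less the other members a shift smaller than the pooled SD. The count of members called in experiment 1 went from 0 to 1 (Sdc1) with a mean filter above 0 (log2 -1.04, adjusted p = 0.0348) and with DESeq2 (log2 -1.03, adjusted p = 1.11e-05). Against untreated mice of experiment 2 it went from 1 to 0 with a mean above 0, a mean of at least 50, quantile normalization, edgeR or only the 2 groups, and against toxin controls from 2 to 1 with a mean above 0 or only the 2 groups (Derl3 lost, adjusted p = 0.0577 and 0.0888). In culture it went from 1 to 3 with DESeq2 and with the replicate block (Irf4 and Eaf2 added, adjusted p = 0.0350 and 0.0423 under the block). Same-numbered libraries did not deviate together in every pair, so numbers were not taken to pair them. Their correlations were -0.04 to 0.05 in experiment 1, -0.11 and -0.07 in experiment 2, and -0.04 to 0.23 in culture. In culture, numbers 1 and 3 had 0.20 and 0.23, above every pair of unlike numbers (-0.26 to 0.13), while number 2 had -0.04. Whether the cultures were paired cannot be told from these values. Over all genes the replicate block called 0 genes in experiment 1 and 204 higher and 244 lower in culture. In depleted against untreated mice of experiment 2 it used only numbers 4 and 5 of each group and left out untreated replicates 6 to 8. It called 82 higher and 68 lower there, which so few libraries do not secure.

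Leaving out 1 library at a time, the members called ranged from 0 to 2 in experiment 1 (2 without depleted replicate 1), 0 to 2 and 0 to 4 in depleted mice of experiment 2 against untreated mice and toxin controls, 0 to 1 in toxin controls against untreated mice (1, Mzb1, without untreated replicate 8) and 1 to 2 in culture. Against toxin controls there were 4 without depleted replicate 5 (Derl3, Irf4 and Eaf2 lower, Sdc1 higher) and 0 without depleted replicate 4. The Sdc1 log2 change ranged from -1.11 to -0.91, -0.20 to 0.57, 0.015 to 0.78 (adjusted p = 0.0295 without depleted replicate 5), -0.35 to -0.05 and -1.95 to -1.64 in the same order, and stayed called in culture in each case (adjusted p up to 0.00210). The change of Sdc1 less the mean of the other 7 ranged from -0.89 to -0.75, 0.081 to 1.02, 0.48 to 1.42, -0.50 to -0.31 and -2.11 to -1.70. The causes were not tested. With 1 depleted library left in experiment 2, its spread is taken from the other groups, so members called in such fits carry no weight. The number of all genes called also moved between fits. In experiment 1 it went from 0 to 1092, or 9.37%, without depleted replicate 1. The counts of members called when a library is left out thus do not by themselves set the members apart from other genes. Depth limits Derl3 in culture and Fkbp11 in experiment 1 most.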
